A study of Drosophila melanogaster with 6 samples.

Results

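The genes described here are those encoded by the mitochondrial genome of *Drosophila melanogaster*, measured by RNA sequencing in heads of flies with and without Adar, the enzyme that converts adenosine to inosine in double-stranded RNA. Members were the rows of the count files whose every exon lay on the mitochondrial genome, which gave 28 of 16641 gene rows: 4 protein genes, 2 ribosomal RNA genes and 22 transfer RNA genes. One group held 3 libraries of the strain labelled y, sc, Adar5G1 and the other 3 libraries of w1118, a common laboratory strain; y and sc were carried by the mutant stock only, per its label. All flies were males aged 3 days, grown at 18 C, and all RNA came from heads. PolyA RNA is named as the molecule in the labels, while the protocol describes removal of ribosomal RNA. A KAPA kit was used to build the libraries, which were read from both ends for 75 bp. Each genotype was 1 stock, and mitochondrial DNA passes through the mother, so genotype, stock background and the mitochondrial genome of the stock cannot be told apart. Since the labels do not say whether the 3 libraries of a genotype come from independent crosses, every p-value reflects library-to-library spread alone, and that spread may be technical.

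The animal mitochondrial genome encodes a few membrane subunits of the respiratory chain and ATP synthase, together with the ribosomal and transfer RNAs needed to translate them. Both strands are transcribed into long precursors, in which transfer RNAs lie between the other genes; RNase P and RNase Z cut at the transfer RNA ends and so release the messenger and ribosomal RNAs, many of which then receive short poly(A) tails. Everything else, including most respiratory chain subunits, the mitochondrial RNA polymerase and the processing enzymes, is encoded in the nucleus. Neurons and photoreceptors depend heavily on this supply of ATP.

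The files did not give every mitochondrial gene a row of its own. Of 13 annotated protein genes, 4 had one: mt:ND5, mt:ND4, mt:ND4L and mt:ND1, all on the minus strand and all encoding membrane subunits of complex I (NADH dehydrogenase). The other 9, on the plus strand, did not: mt:CoI, mt:CoII, mt:CoIII, mt:ATPase6, mt:ATPase8, mt:Cyt-b, mt:ND2, mt:ND3 and mt:ND6. A single row without a gene ID held 6 plus-strand mitochondrial intervals together with 323 exons elsewhere in the genome, so its counts belong to no single gene and were not tested. Nothing below speaks of cytochrome oxidase, cytochrome b or ATP synthase subunits made in the mitochondrion.

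For Adar itself, 5, 1 and 19 fragments were counted in the mutant and 2860, 6142 and 2602 in w1118. The libraries held 6872569 to 21639081 counts each. Of the nuclear rows, 237 were treated as ribosomal RNA, 103 of them by symbol or biotype. The rest were rows on unplaced scaffolds without a protein-coding biotype, so not all need be ribosomal RNA. Together the 237 rows took 10.9%, 25.9% and 23.7% of the counts in Adar5G1 and 4.31%, 22.4% and 42.4% in w1118. Mitochondrial rows took 2.79% to 5.21%. Levels are therefore given as CPM, here counts per 1000000 counts of nuclear rows that are not ribosomal RNA. This denominator was 10147817, 5076484 and 15515240 counts for the mutant and 6218555, 13014251 and 6639628 for w1118, with replicates 1, 2 and 3 in order here and throughout.

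Detection differed by class. All 4 protein rows and both ribosomal RNA rows had counts in all 6 libraries. Of the 22 transfer RNA rows, 19 had a count in any library, 8 had counts in all 6 and 5 passed the filter on low counts. The rows of mt:tRNA:Ile-GAT, mt:tRNA:Gln-TTG and mt:tRNA:Glu-TTC had 0 counts in every library, which allows up to 3 counts, or 0.193 to 0.591 CPM depending on the library. These limits cover counting error only. In all, 11 of the 28 members were tested; the 17 others were transfer RNA rows with at most 53 counts over all libraries.

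Ribosomal RNA made up 97.5% to 98.2% of mitochondrial counts in each library, the 4 messenger RNAs 1.74% to 2.42% and transfer RNAs 0.0357% to 0.0499%. Per kilobase of gene, averaged over all 6 libraries, mt:lrRNA stood at 29780 CPM, mt:srRNA at 19378, mt:ND1 at 471.5, mt:ND4 at 245.1, mt:ND5 at 210.1 and mt:ND4L at 151.4. Each of these genes was above the next in 6 of 6 libraries. Across libraries, the ranges of mt:ND4 and mt:ND5 overlapped, as did those of mt:ND5 and mt:ND4L, whereas those of mt:ND1 and mt:ND4 did not.

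Among the tested members, mt:ND5 and the transfer RNA mt:tRNA:Leu-TAA were higher in Adar5G1, and none was lower. The filter on low counts was passed by mt:tRNA:Leu-TAA only through its Adar5G1 libraries, the group where it is high. By edgeR's quasi-likelihood test with Benjamini-Hochberg adjustment over all 10122 genes tested, 2 of 11 members rose, beside 7.85% of all tested genes, and 0 fell, beside 7.3%. Over all tested genes the split was 795 higher and 739 lower, and it moved to 905 and 535 with TMM factors and to 582 and 209 with total counts. The count of fallers was also 0 at an unadjusted p under 0.05, with DESeq2 and with limma-voom. The log2 fold change was above 0 for 10 of 11 members, beside 40.9% of all tested genes, and its median was 0.26 for the members and -0.05 for all tested genes. Of those 10, mt:lrRNA and mt:tRNA:Val-TAC turned negative without Adar5G1 replicate 3 (-0.050 and -0.061). Rows below the filter did not enter this count. In contrast, mt:tRNA:Leu-TAA and mt:tRNA:Gly-TCC entered the count and the median only through their Adar5G1 libraries. Both values are thus tilted upward by the filter, and no shared direction is read from them. Of those with counts in all libraries, mt:tRNA:Ala-TGC and mt:tRNA:Arg-TCG had lower mean levels in Adar5G1 and mt:tRNA:Lys-CTT a higher one. Members can share a precursor and some share bases, so their signs are not independent, and the count of 10 was not tested. The groups did not overlap for 2 of 11 members, beside 33.8% of all tested genes. In heads, which mix many cell types, fewer cells of a type and less RNA per cell cannot be told apart.

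**Figure D1:**
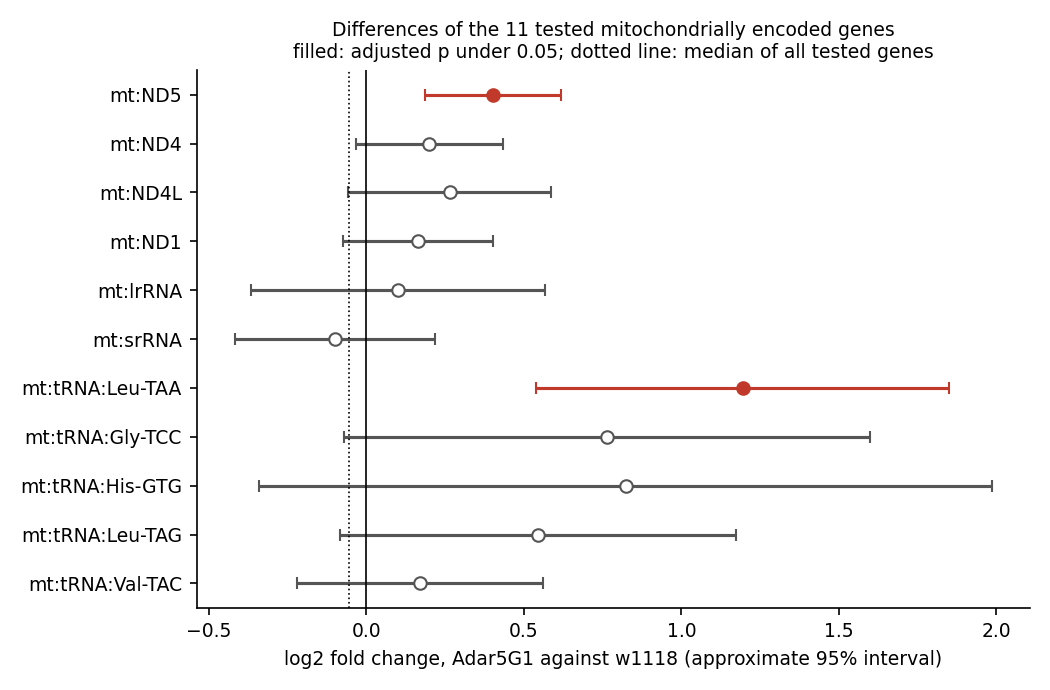
Log2 fold change of each of the 11 tested members, Adar5G1 against w1118, with its approximate 95% interval; filled points passed an adjusted p of 0.05 and the dotted line is the median of all tested genes. The point of mt:srRNA is the only one below 0, and the intervals of mt:ND5 and mt:tRNA:Leu-TAA alone lie wholly above 0.

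The messenger RNA of mt:ND5 (FBgn0013684, bases 6402 to 8124 of the mitochondrial sequence in the deposited files, build dm3, minus strand) encodes a large subunit of the proton-pumping membrane arm of complex I. Its counts were 4547, 1964 and 6225 in Adar5G1 and 2072, 3604 and 2166 in w1118. On the scaled level these were 448.1, 386.9 and 401.2 CPM against 333.2, 276.9 and 326.2 CPM. Every Adar5G1 library was above every w1118 library, and the lowest w1118 library was replicate 2. The means were 412.1 ± 32.0 and 312.1 ± 30.7 CPM (SD, n = 3 each), a 1.32-fold difference with a log2 fold change of 0.40 (SE 0.09, interval 0.19 to 0.62, edgeR adjusted p 0.0235). The log2 fold change stayed positive in all 20 alternatives, and the call held in 14 of them. The edgeR adjusted p was 0.67 with libraries scaled by their total counts, 0.367 with ribosomal RNA rows defined by symbol or biotype only, and rose above 0.05 when Adar5G1 replicate 1 (0.093), w1118 replicate 1 (0.054) or w1118 replicate 2 (0.081) was left out.

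The gene mt:ND4 (FBgn0262952, bases 8206 to 9544, minus strand), another pumping subunit, stood at 382.3, 313.4 and 356.3 CPM in Adar5G1 and 335.6, 273.5 and 307.7 CPM in w1118. These groups overlapped, with Adar5G1 replicate 2 inside the w1118 range. The log2 fold change was 0.20 (SE 0.10, interval -0.03 to 0.43, edgeR adjusted p 0.244). The short neighbouring gene mt:ND4L (FBgn0013683, bases 9544 to 9834, minus strand), which shares 1 base with mt:ND4, stood at 52.0, 40.8 and 50.6 CPM against 46.3, 33.4 and 41.3 CPM. Here too Adar5G1 replicate 2 lay within the w1118 range, and the log2 fold change was 0.26 (SE 0.14, interval -0.06 to 0.59, edgeR adjusted p 0.267).

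The remaining messenger RNA, mt:ND1 (FBgn0013679, bases 11720 to 12658, minus strand), encodes the subunit at the junction between the membrane arm and the matrix arm, where ubiquinone enters. Its levels were 498.6, 400.1 and 504.1 CPM in Adar5G1 and 452.2, 394.3 and 407.3 CPM in w1118. Replicate 2 was the lowest library of both groups, and the groups overlapped. The log2 fold change was 0.16 (SE 0.10, interval -0.08 to 0.40, edgeR adjusted p 0.352). Summed, the 4 messenger RNAs reached 1278 ± 124 CPM in Adar5G1 and 1076 ± 94.7 CPM in w1118 (SD, n = 3 each), which overlapped (exact 2-sided permutation p = 0.2, where 3 against 3 cannot go below 0.1).

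**Figure D2:**
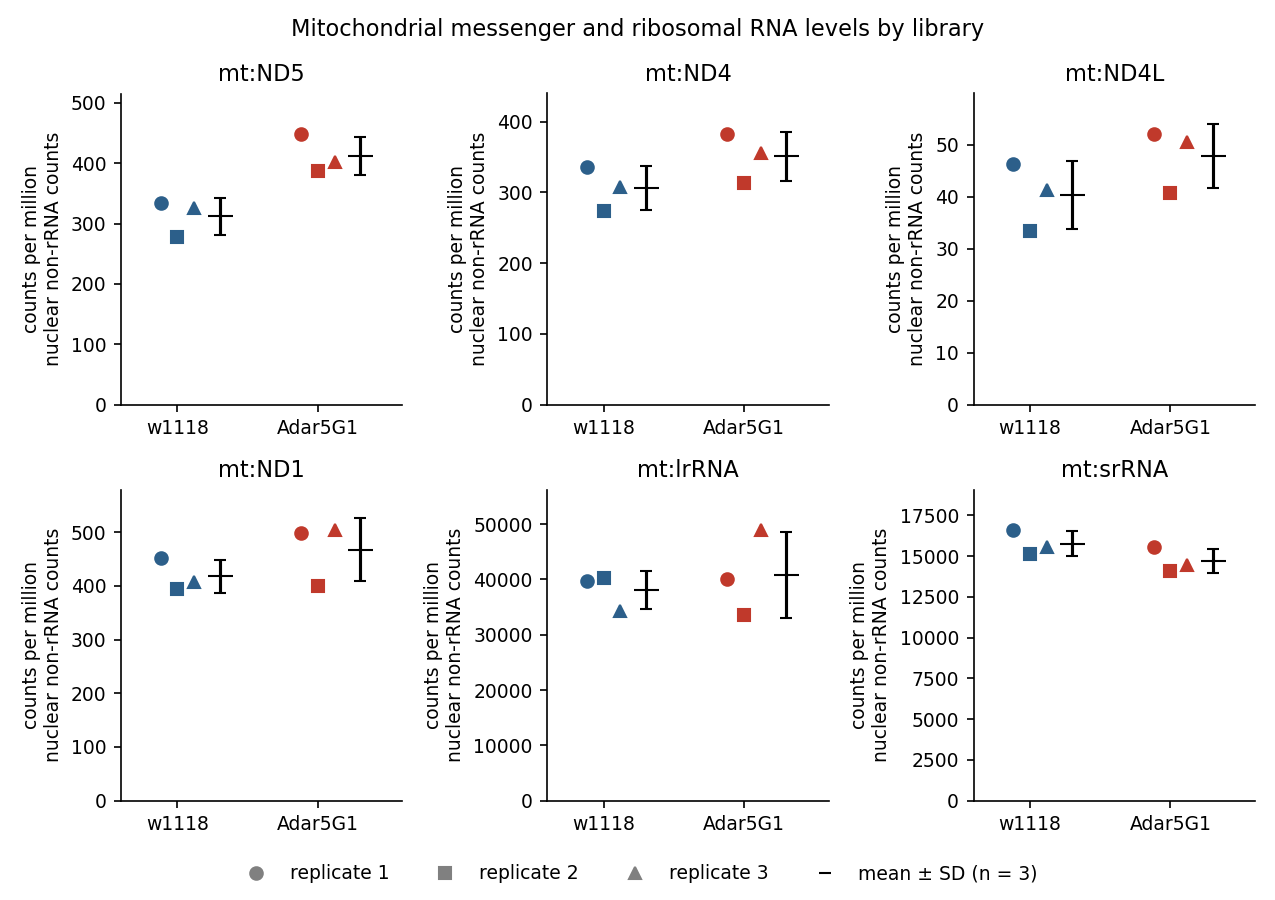
Level of each mitochondrial messenger and ribosomal RNA in each library, in CPM of nuclear non-rRNA counts on linear axes from 0; symbols are replicates and bars the mean ± SD of 3 libraries. The 3 Adar5G1 libraries lie above the 3 w1118 libraries for mt:ND5, while both groups overlap for mt:ND4, mt:ND4L, mt:ND1, mt:lrRNA and mt:srRNA.

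Within the 4 messenger RNAs the makeup was also compared, since a share does not depend on how libraries are scaled. The gene mt:ND5 took 32.4%, 33.9% and 30.6% of the 4 genes' counts in Adar5G1 and 28.5%, 28.3% and 30.1% in w1118. All Adar5G1 shares were above all w1118 shares, by 3.31 percentage points on average (exact 2-sided permutation p = 0.1, the smallest possible; 0.2 adjusted over the 4 genes). The share of mt:ND4 was 27.7%, 27.5% and 27.2% against 28.8%, 28.0% and 28.4%, again without overlap but in the other direction, with the same p-values. Shares are parts of 1 whole, so a higher share of mt:ND5 lowers the sum of the others. In level, mt:ND4 had a higher mean in Adar5G1 (350.7 against 305.6 CPM), with overlapping groups. The shares of mt:ND1 (36.1%, 35.1% and 38.4% against 38.7%, 40.3% and 37.6%) and of mt:ND4L (3.77%, 3.57% and 3.86% against 3.97%, 3.42% and 3.81%) overlapped. No share difference could pass 0.05 in a design of this size. As a ratio of counts, mt:ND5 to mt:ND4 was 1.17, 1.23 and 1.13 in Adar5G1 and 0.993, 1.01 and 1.06 in w1118.

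**Figure D3:**
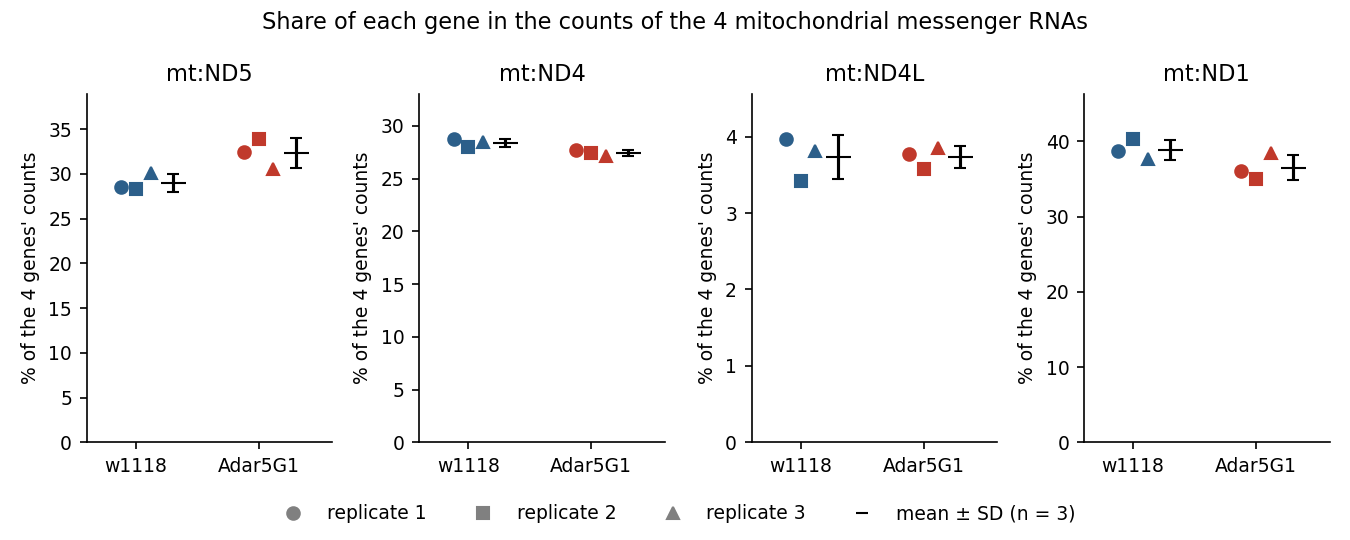
Share of each gene in the summed counts of the 4 mitochondrial messenger RNAs, in percent, by library, with the mean ± SD of 3 libraries; each axis starts at 0 and has its own scale. The shares of mt:ND5 are higher and those of mt:ND4 lower in all 3 Adar5G1 libraries than in any w1118 library.

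The ribosomal RNAs, the structural and catalytic cores of the mitochondrial ribosome, did not pass the test. The large-subunit RNA mt:lrRNA (FBgn0013686, bases 12734 to 14058, minus strand) stood at 40025, 33544 and 48919 CPM in Adar5G1 and 39802, 40232 and 34232 CPM in w1118. Adar5G1 replicate 3 was the highest and replicate 2 the lowest of all 6 libraries, and the log2 fold change was 0.10 (SE 0.20, interval -0.37 to 0.57, edgeR adjusted p 0.799). Without Adar5G1 replicate 3 it was -0.050. The small-subunit RNA mt:srRNA (FBgn0013688, bases 14131 to 14916, minus strand) varied less, at 15560, 14110 and 14427 CPM against 16594, 15125 and 15570 CPM, with a log2 fold change of -0.10 (SE 0.14, interval -0.42 to 0.22, edgeR adjusted p 0.689). Both ribosomal RNAs overlapped between the groups. The ratio of mt:lrRNA to mt:srRNA counts was 2.57, 2.38 and 3.39 in Adar5G1 and 2.40, 2.66 and 2.20 in w1118, so Adar5G1 replicate 3 again stood highest. How far the depletion of ribosomal RNA removed these transcripts in each library was not tested.

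The transfer RNA mt:tRNA:Leu-TAA (FBgn0013699, bases 3012 to 3077, plus strand), 1 of 2 mitochondrial leucine transfer RNAs, had 25, 12 and 35 counts in Adar5G1 and 8, 11 and 7 in w1118. As levels these were 2.46, 2.36 and 2.26 CPM against 1.29, 0.845 and 1.05 CPM, with no overlap. The means were 2.36 ± 0.104 and 1.06 ± 0.221 CPM (SD, n = 3 each), a 2.29-fold difference with a log2 fold change of 1.19 (SE 0.29, interval 0.54 to 1.85, edgeR adjusted p 0.0259). It passed the filter on low counts through Adar5G1, where its level is high, and the w1118 libraries alone would not have let it pass. The row rests on 98 counts in all, and the call held in 8 of the 19 alternatives that tested it. It was lost when any 1 library was left out and with DESeq2, with the adjusted p reaching at most 0.124 over the alternatives. The gene shares 1 base with a plus-strand interval of the row without a gene ID that ends at base 3012, and a fragment overlapping several rows was counted for each.

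The other tested transfer RNAs did not pass. The most counted of them, mt:tRNA:Val-TAC (bases 14058 to 14130, minus strand, between both ribosomal RNA genes), had 121, 64 and 275 counts in Adar5G1 and 77, 175 and 81 in w1118. The second leucine transfer RNA, mt:tRNA:Leu-TAG (bases 12669 to 12733, minus strand, between mt:ND1 and mt:lrRNA), had 43, 14 and 60 against 13, 29 and 23 counts. Both overlapped between the groups once scaled. By level in Adar5G1 and w1118, mt:tRNA:Val-TAC, which shares 1 base with mt:lrRNA, stood at 14.1 ± 3.17 and 12.7 ± 0.674 CPM (SD, n = 3 each; log2 fold change 0.17, edgeR adjusted p 0.567, and -0.061 without Adar5G1 replicate 3). mt:tRNA:Leu-TAG stood at 3.62 ± 0.770 and 2.59 ± 0.756 CPM (log2 fold change 0.54, edgeR adjusted p 0.242). The glycine transfer RNA mt:tRNA:Gly-TCC (bases 5543 to 5607, plus strand) had 18, 12 and 30 against 7, 10 and 12 counts. Like mt:tRNA:Leu-TAA, it passed the filter only through its Adar5G1 libraries. The histidine transfer RNA mt:tRNA:His-GTG (bases 8140 to 8205, minus strand, between mt:ND5 and mt:ND4) had 19, 2 and 33 against 4, 11 and 9 counts, and Adar5G1 replicate 2 was the lowest library in level. Their log2 fold changes were 0.76 (interval -0.07 to 1.6, edgeR adjusted p 0.217) and 0.82 (interval -0.34 to 1.99, edgeR adjusted p 0.336). These intervals include both no difference and a change larger than that of mt:ND5. Summed over all 22 rows, transfer RNA levels were 24.8, 22.9 and 32.3 CPM in Adar5G1 and 20.6, 20.5 and 21.7 CPM in w1118, which did not overlap (exact 2-sided permutation p = 0.1, the smallest possible). Few rows carry this sum: mt:tRNA:Val-TAC made up 48.0% to 65.5% of it by library, and the 5 tested rows 85.2% to 91.7%.

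Which transfer RNA rows reached the filter went with their position. A limit of 20 bases to the nearest larger mitochondrial row or interval on the same strand was set after the values were seen. All 5 tested rows had such a neighbour on both sides, with 78 to 793 counts over the 6 libraries. The 7 rows with a neighbour on 1 side had 1 to 53 counts, and the 10 rows with none had 0 to 28. The most counted rows below the filter were mt:tRNA:Ala-TGC with 53 counts and mt:tRNA:Lys-CTT with 45, which shares 3 bases with an interval of the row without a gene ID. Transfer RNAs are shorter than the 75-bp reads, so a fragment counted for one can extend into its neighbours; whether the counts come from mature transfer RNA or from longer precursors was not tested.

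**Figure D4:**
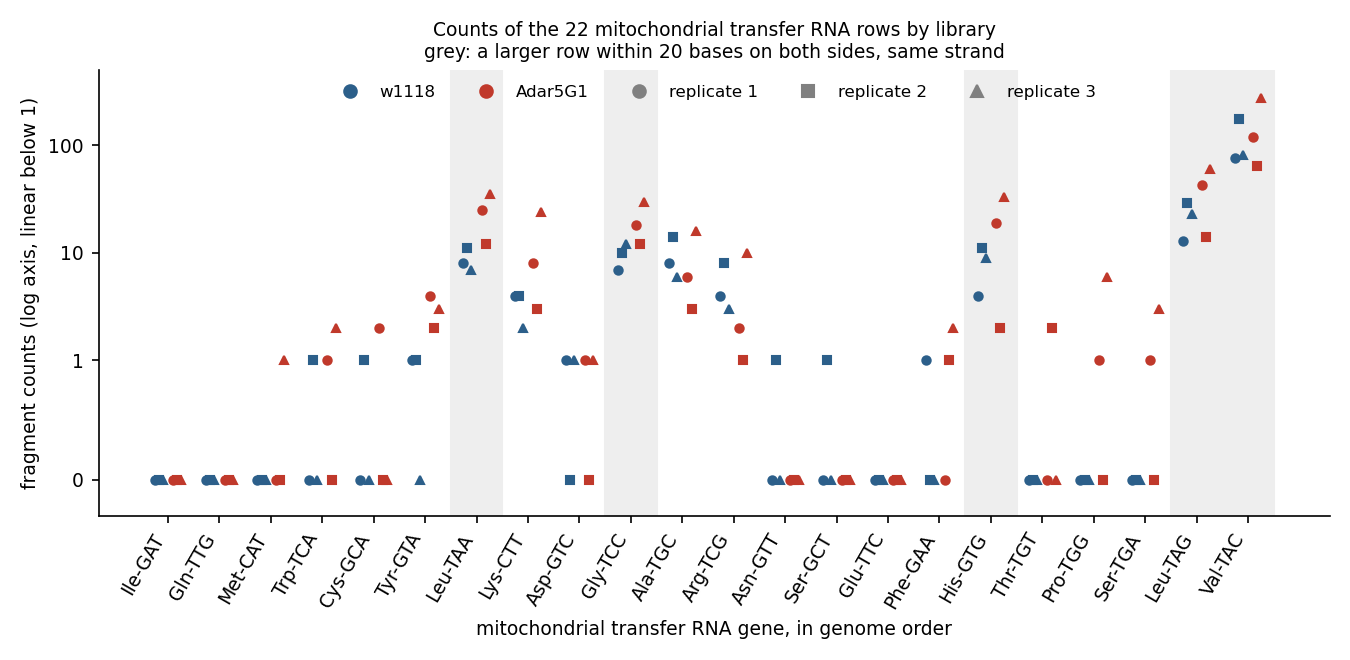
Fragment counts of the 22 mitochondrial transfer RNA rows in each library, in genome order, on a log axis that is linear below 1; colours are groups, symbols are replicates and grey bands mark rows with a larger same-strand mitochondrial row or interval within 20 bases on both sides. The 5 rows in grey bands have counts in all 6 libraries and sum to 78 to 793 counts, above the 0 to 53 counts of every other row.

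The nuclear genes that make, cut and degrade mitochondrial RNA were compared in the same fit. Of 16 tested genes of this list, 1 rose, 1 fell and 14 did not pass, beside 7.85% of all tested genes higher and 7.3% lower. The median log2 fold change was -0.22 for the list and -0.05 for all tested genes. The gene that rose was scu, which encodes a mitochondrial hydroxysteroid dehydrogenase that is also a subunit of RNase P. Its levels were 73.6, 112 and 55.8 CPM in Adar5G1 and 22.03, 21.67 and 29.67 CPM in w1118. The groups were far apart, at 80.4 ± 28.5 against 24.5 ± 4.52 CPM (SD, n = 3 each), a 3.26-fold difference (log2 fold change 1.71, SE 0.25, edgeR adjusted p 0.00313) that was called in every alternative at the 0.05 threshold.

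The other RNase P subunits, named after their values were seen, did not pass: mldr, the nuclease, stood at 2.87 ± 0.493 and 3.22 ± 0.994 CPM (edgeR adjusted p 0.69), and rswl, the methyltransferase subunit, at 13.0 ± 1.04 and 15.9 ± 3.02 CPM (edgeR adjusted p 0.314; SD, n = 3 each). The transcription factor mtTFB2 fell from 8.03 ± 1.01 to 5.32 ± 0.0996 CPM (log2 fold change -0.59, SE 0.16, edgeR adjusted p 0.0408), a call lost when any 1 library was left out. The polymerase gene PolrMT, which like TFAM was named after its values were seen, stood at 49.6 ± 4.98 and 51.6 ± 2.81 CPM in Adar5G1 and w1118, and TFAM, which packages mitochondrial DNA and starts transcription, at 16.1 ± 0.541 and 16.97 ± 1.21 CPM. Neither passed the test (edgeR adjusted p 0.727 and 0.752).

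**Figure D5:**
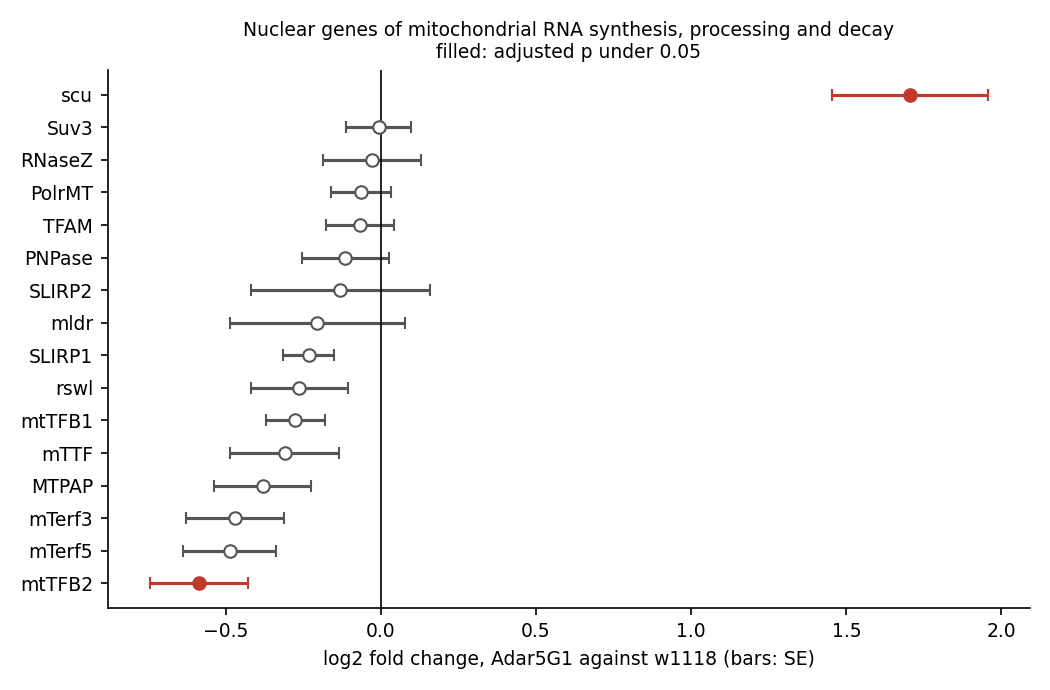
Log2 fold change (Adar5G1 against w1118) of the 16 tested nuclear genes of mitochondrial RNA synthesis, processing and decay, with SE bars; filled points passed an adjusted p of 0.05. The point of scu lies at 1.71, apart from the other 15, which lie at or below 0.

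Other nuclear genes of the organelle were read against the same shares. Of 67 tested nuclear subunits of the respiratory chain and ATP synthase, 0 rose and 1 fell, beside 7.85% and 7.3% of all tested genes, with a median log2 fold change of -0.13 beside -0.05. That 1 was UQCR-6.4, a complex III subunit (46.2 ± 2.70 against 56.4 ± 1.10 CPM, edgeR adjusted p 0.0408), and its call was lost when any 1 library was left out. Of 10 genes of mitochondrial DNA maintenance and biogenesis none passed in either direction, and the highest in level, the kinase gene Pink1, stood at 157 ± 7.63 and 154 ± 10.2 CPM.

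Markers of the cell types in a head differed between the groups as well, and their part in the mitochondrial differences was not tested. Of 9 tested photoreceptor markers 5 fell, with the smallest p-values for the channel gene trpl, the kinase gene inaC and the myosin gene ninaC, beside 7.3% of all tested genes lower; the list's summed level was 27633 to 32347 CPM in Adar5G1 against 37745 to 40836 CPM in w1118. Of 15 muscle markers 6 fell, with the smallest p-values for Tm1, TpnC41C and Act88F, with sums of 17835 to 18603 against 17427 to 19538 CPM. Among those that did not pass, bt (4124 against 3710 CPM), sls (4891 against 4266 CPM) and Mf (938 against 820 CPM), named after their values were seen, had higher means in Adar5G1 and groups that did not overlap. The Tm1 call was lost with total counts, with ribosomal RNA by symbol or biotype and with the replicate as a block. TpnC41C lost its call with that block and without w1118 replicate 1. Act88F lost its call without Adar5G1 replicate 1, without w1118 replicate 1 and without both libraries numbered 3. Of 6 fat body markers 3 rose (to, Fbp1 and apolpp), beside 7.85% of all tested genes, with sums of 6455 to 8217 against 3719 to 5686 CPM. The call of apolpp was lost with total counts, with ribosomal RNA by symbol or biotype and with the replicate as a block. It was also lost without any 1 of Adar5G1 replicates 1 and 2 and w1118 replicates 1 and 2. The call of Fbp1 was lost without w1118 replicate 2. Of 9 neuronal markers 1 rose (Syt1; sums 7201 to 8873 against 6680 to 7535 CPM), a call lost with 3 other scalings and when any library but Adar5G1 replicate 2 was left out. The neuronal marker nSyb, named after its values were seen, did not pass, at 1225 against 1430 CPM with no overlap. Of 8 glial markers none passed (2143 to 2370 against 2310 to 2565 CPM), and the highest, Gs2, stood at 1039 ± 62.3 and 1161 ± 69.8 CPM (SD, n = 3 each). Of 6 hemocyte markers 1 fell (crq; 332 to 446 against 384 to 602 CPM), a call lost with TMM, RLE, total counts and DESeq2 and when any 1 library was left out. No marker of these lists was at 0 in all libraries.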

How the data were processed

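The authors deposited raw fragment counts, 1 file per library. Per the file headers, these came from featureCounts 1.4.5-p1 run by exon in reverse-stranded mode on FlyBase release 5.53, with overlapping rows each credited with a shared fragment and without the multi-mapping option. TopHat (no version stated) and dm3 (BDGP5) are named in the submitters' processing notes. A row that lacks a gene ID (0.369% to 0.633% of counts) entered neither library sizes nor tests. Symbols matched 15924 of 16641 IDs; biotypes came from a BDGP6 annotation by ID only.

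Counts were tested with edgeR 4.0.16 in R 4.3.3 (filterByExpr, minimum 10; quasi-likelihood F test, group only, Benjamini-Hochberg adjustment over all tested genes, threshold 0.05). Library size was the count of nuclear rows not treated as ribosomal RNA, with no further factor. Rows were treated as ribosomal RNA by symbol or biotype, or if they lay on unplaced scaffolds without a protein-coding biotype. SE is the absolute log2 fold change over the root of F, and intervals as 95% t intervals; both are approximate. Sums and shares were compared by exact 2-sided permutation. The procedure was tested on simulated data.

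No 2 libraries agreed within sampling noise: over all rows, ribosomal RNA included, chi-square per degree of freedom within a group was at least 30.6. Depth was 6872569 to 21639081 counts. Named were every mitochondrial protein and ribosomal RNA gene, every tested transfer RNA, and up to 3 called genes of each nuclear list by smallest p, otherwise its highest; genes named outside the rule are marked. The members, gene lists and rules were chosen with earlier results of these data known. Alternatives were other scalings (TMM, RLE, upper quartile, total counts), DESeq2 1.42.0, limma-voom 3.58.1, other filters, a replicate block and each library left out.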

Additional observations from a re-analysis of the deposited data

How the results depend on the processing

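Of the members, 2 rose as reported. The count was 1 with DESeq2, with a minimum of 50 counts and without both libraries numbered 3, 0 with total counts, with ribosomal RNA by symbol or biotype and at an adjusted p of 0.01, and 0 to 1 with each library left out; the cause was not tested. No setting called a member lower. Replicate numbers did not pair the libraries (same-number correlations 0.126, -0.189 and -0.295), and with the replicate as a block 0 members, 418 higher genes and 319 lower genes were called, with adjusted p 0.057 for mt:ND5 and 0.103 for mt:tRNA:Leu-TAA. Under that block the lists gave 0 lower respiratory chain, 0 lower mitochondrial RNA, 1 lower muscle, 2 lower photoreceptor, 0 higher neuronal and 0 lower hemocyte genes. Of all genes, 795 were higher (462 to 847 with each library left out, 378 at 0.01) and 739 lower (379 to 722; 301 at 0.01, 209 with total counts, 296 with ribosomal RNA by symbol or biotype).

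The 1 lower respiratory chain gene and the 1 lower mitochondrial RNA gene became 0 with TMM over all or nuclear rows, RLE, total counts, ribosomal RNA by symbol or biotype, DESeq2, no filter and 0.01, and 2 with upper quartile; with each library left out the counts were 0 to 2 and 0 to 0, and the second was 0 without both libraries numbered 3. That last setting, chosen after seeing the data, gave 1 higher gene of mitochondrial DNA maintenance, 4 lower neuronal markers (0 to 2 with each library left out) and 0 lower hemocyte markers. Lower muscle markers numbered 3 with total counts, 3 with ribosomal RNA by symbol or biotype, 1 at 0.01 and 2 to 6 with each library left out; lower photoreceptor markers 1, 1, 2 and 3 to 4, and 8 with DESeq2. The higher neuronal marker became 0 with upper quartile, total counts, ribosomal RNA by symbol or biotype and 0.01 (0 to 1 with each library left out), the lower glial count 2 with upper quartile (0 to 1), the higher fat body count 1 at 0.01 (1 to 3), and the lower hemocyte count 0 with TMM over all or nuclear rows, RLE and 0.01 and 2 with ribosomal RNA by symbol or biotype (0 to 2).

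The log2 ratio of summed mitochondrial ribosomal RNA, 0.04, ran from -0.063 (without Adar5G1 replicate 3) to 0.14 with each library left out, was -0.02 without w1118 replicate 3 and -0.12 without both libraries numbered 3. In the first and last of these settings mt:lrRNA was at -0.050 and -0.12, and mt:tRNA:Val-TAC at -0.061 and -0.091; with each library left out they reached at most 0.22 and 0.29. The share difference of mt:ND4L, near 0, ran from -0.16 to 0.12 percentage points with each library left out and was 0.08, 0.12 and 0.04 without Adar5G1 replicate 2, w1118 replicate 1 and w1118 replicate 3. Of the 22 transfer RNA rows, 17 did not pass the filter on low counts; the cause was not tested.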

Other observations

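The row without a gene ID, which joins 6 plus-strand mitochondrial intervals (6902 of its 21965 bases) to exons elsewhere, stood at 7382, 6438 and 8116 CPM in the mutant and 7038, 6512 and 6769 CPM in w1118, and these ranges overlap. Among the transfer RNA rows below the filter, mt:tRNA:Tyr-GTA had 4, 2 and 3 counts in the mutant against 1, 1 and 0. It was named after its values were seen and was not tested. Of the more counted rows below the filter, mt:tRNA:Ala-TGC and mt:tRNA:Arg-TCG had lower mean levels in the mutant and mt:tRNA:Lys-CTT a higher one. The levels of mt:tRNA:Ala-TGC, mt:tRNA:Arg-TCG and mt:tRNA:Lys-CTT overlapped between the groups. Those of mt:tRNA:Tyr-GTA, with 11 counts in all, did not.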
